A study of Mus musculus with 12 samples.

Results

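The genes described here are 30 genes of the B lymphoid program in the mouse, chosen by name as markers and regulators of the step from a blood progenitor to a B cell precursor. Of these, 28 were measured among the 27998 genes of the series, and Ighm and Igkc were not analysed here. Their RNA was counted by single-cell RNA sequencing (3′ chemistry) of bone marrow cells enriched for the stem and progenitor cell receptor c-Kit. Levels are given as CPM, the unique molecular identifiers (UMIs, each marking 1 captured RNA molecule) of a gene among 1 M UMIs of the same library and cell set (M is 10 to the power of 6). A 3′ count does not grow with transcript length, but levels are compared here between samples of 1 gene and not between genes.

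Mice of 4 genotypes on the C57BL/6 background were studied. WT mice carried the floxed alleles without Mx1-Cre, E2-KO mice were Mx1-Cre+;Ezh2 f/f, G12D mice were Mx1-Cre+ with the activating NRas G12D allele behind a removable stop (NRas LSL-G12D+/−), and G12D/E2-KO mice carried both changes with Mx1-Cre. All mice, WT included, received 5 injections of pIpC at 20 mg/ml. The age at injection was 8 to 12 weeks by the labels, and a younger age is stated in the study's text. pIpC is a double-stranded RNA that induces interferon and through it the Mx1 promoter, which is not restricted to blood cells. Marrow was taken at 3 times after pIpC, which are called T1 (at 2 weeks), T2 (at 2 months) and T3 (at 4 months), with 1 library for each genotype and time point, so 12 libraries in all. The 3 time points therefore served as the replicates of a genotype. With time points matched or modelled, p-values of genotype comparisons measure how far genotype differences varied between time points and single libraries. For T3 against T1 the 4 genotypes served as the replicates. The recombinase differs between WT and the mutants, and its effect cannot be told apart from theirs in comparisons with WT. The same holds in part for averages over genotypes and for interactions that take in the WT libraries.

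B cells arise in the bone marrow from lymphoid progenitors, in which the factors E2A, EBF1 and PAX5 act in turn to open and fix the B cell program. The RAG1 and RAG2 enzymes cut the immunoglobulin loci, and the finished heavy chain is displayed with a surrogate light chain (VPREB and λ5) and the signalling pair CD79A and CD79B as the pre-B cell receptor. Ezh2 encodes the enzyme through which Polycomb proteins methylate histone H3 at lysine 27, and NRas a small GTPase of growth factor signalling.

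The libraries held 2350 to 3767 cells and 12.6 to 23.6 M UMIs, with a median of 3780.5 to 6975.5 UMIs per cell. The tables of G12D T1 and G12D/E2-KO T1 shared 2896 cells, which were 51.3% and 95.1% of their cells. The labels do not settle the genotype of these cells, so every G12D/E2-KO T1 value rests on that library's label. They were counted in G12D/E2-KO T1 only, where Ezh2 then measured 20.7 CPM, against 86.3 CPM in the rest of G12D T1. Calls lost with the cells as deposited, in both tables, are named with their values, and leaving out G12D/E2-KO T1 takes the shared cells out of both. Ezh2 measured 103 to 133 CPM in WT libraries and 81.7 to 103 CPM in those of G12D, against 20.7 to 25.3 CPM in G12D/E2-KO and 27.7 to 34.6 CPM in E2-KO libraries. Nras measured 52.5 CPM (E2-KO T3) to 80.3 CPM (G12D T1) over the 12 libraries. A gene count does not tell the G12D transcript from the normal one, so the Nras count does not check the allele. Xist, the RNA of the inactive X chromosome, measured 1296 to 1357 CPM in WT, E2-KO and G12D at T3 but 0.130 CPM in G12D/E2-KO at T3 and at most 0.608 CPM in the 8 libraries of T1 and T2. At T3 the sex of the mice and the G12D/E2-KO genotype cannot be told apart, nor can sex and time in T3 against T1 for the other 3 genotypes, and results are therefore also given for T1 and T2 alone, an alternative chosen after the data were seen.

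The promoter sequences of 6 members on which the results turn are shown first, to let the letters before their start sites be compared. The genes are Vpreb1, Vpreb2 and Igll1 for the surrogate light chain, Cd79a for the receptor, Rag1 for recombination and Pax5 for transcription. Each runs 5′ to 3′ from 250 bases before to 50 bases after the RefSeq start (GRCm38.p6, the build that mm10 names). Capitals mark, on either strand, the E2A E-box CAGGTG, the EBF1 core CCCNNGGG and the RUNX motif TGTGGT; none of these overlapped another here.
Vpreb1, chr16:16869206-16869505, minus strand: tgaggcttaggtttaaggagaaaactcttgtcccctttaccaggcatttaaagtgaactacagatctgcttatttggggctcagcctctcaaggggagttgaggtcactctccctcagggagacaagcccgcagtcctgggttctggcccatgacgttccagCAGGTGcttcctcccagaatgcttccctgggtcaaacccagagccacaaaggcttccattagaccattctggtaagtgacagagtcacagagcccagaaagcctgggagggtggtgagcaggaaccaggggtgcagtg
Vpreb2, chr16:17980315-17980614, plus strand: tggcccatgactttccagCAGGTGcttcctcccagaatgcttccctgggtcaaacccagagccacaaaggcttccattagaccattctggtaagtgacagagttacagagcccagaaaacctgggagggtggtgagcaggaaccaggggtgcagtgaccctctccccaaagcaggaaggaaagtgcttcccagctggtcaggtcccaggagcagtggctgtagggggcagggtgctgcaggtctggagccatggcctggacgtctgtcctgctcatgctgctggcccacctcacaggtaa
Igll1, chr16:16863936-16864235, minus strand: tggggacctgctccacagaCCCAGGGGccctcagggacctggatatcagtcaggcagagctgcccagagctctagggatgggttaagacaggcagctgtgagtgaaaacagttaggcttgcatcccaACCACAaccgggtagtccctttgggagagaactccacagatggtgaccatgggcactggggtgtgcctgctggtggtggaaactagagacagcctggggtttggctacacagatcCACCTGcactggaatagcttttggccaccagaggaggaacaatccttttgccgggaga
Cd79a, chr7:24897247-24897546, plus strand: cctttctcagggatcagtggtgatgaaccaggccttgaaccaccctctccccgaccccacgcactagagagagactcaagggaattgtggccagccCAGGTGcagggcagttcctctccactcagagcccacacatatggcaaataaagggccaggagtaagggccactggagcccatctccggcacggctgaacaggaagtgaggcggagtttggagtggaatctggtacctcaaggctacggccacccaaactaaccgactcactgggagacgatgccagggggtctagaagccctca
Rag1, chr2:101649483-101649782, minus strand: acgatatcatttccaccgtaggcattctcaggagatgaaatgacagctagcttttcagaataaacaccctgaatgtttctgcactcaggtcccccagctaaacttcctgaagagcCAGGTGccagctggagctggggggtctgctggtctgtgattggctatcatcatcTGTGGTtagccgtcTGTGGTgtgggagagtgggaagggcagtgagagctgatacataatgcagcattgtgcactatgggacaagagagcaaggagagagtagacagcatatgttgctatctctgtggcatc
Pax5, chr4:44710645-44710944, minus strand: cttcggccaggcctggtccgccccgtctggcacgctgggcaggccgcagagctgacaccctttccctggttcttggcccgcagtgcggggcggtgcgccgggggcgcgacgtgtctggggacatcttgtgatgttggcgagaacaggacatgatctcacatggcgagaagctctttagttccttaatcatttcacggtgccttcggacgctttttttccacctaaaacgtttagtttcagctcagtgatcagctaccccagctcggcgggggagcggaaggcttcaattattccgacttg

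Of the 28 measured members, 20 had a promoter in the RefSeq table. The E-box lay in 9 of these 20 (Bfsp2, Blnk, Cd79a, Fcrla, Igll1, Lef1, Rag1, Vpreb1 and Vpreb2), against 20.2% of all 32851 promoters of the same length. In Vpreb1 it began 88 bases, and in Vpreb2 232 bases, before the start, and the longest run of identical letters in both windows, 91 bases, holds this E-box. The RUNX motif lay in 6 of 20 (Bfsp2, Ebf1, Igll1, Il7r, Rag1 and Vpreb3), against 16.8% of all promoters, and the EBF1 core in 2 of 20 (Igll1 and Spib), against 13.7%. Igll1 held all 3 motifs and the Pax5 window none. Members were counted by gene, with a match in any promoter of the gene, whereas the shares of all promoters count each promoter once. A match is a run of letters and not a binding site.

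Most members were read mainly from B precursors, where 25 of 28 had 50% or more and 10 of 28 had 90% or more of their UMIs. B precursors were defined as cells in which 3 or more of 7 genes were detected (Vpreb1, Igll1, Vpreb3, Ebf1, Cd79a, Blnk and Lef1). For these 7 selecting genes the share of UMIs in such cells follows from the definition and ran from 89.7% (Blnk) to 95.3% (Lef1). Both counts above include them. Of the other members only Vpreb2, Pax5, Id3 and Pou2af1 reached 90%, and Bcl7a, Cd72 and Fcrla lay under 50%. Among the members that did not select, the shares were 97.6% for Vpreb2, 95.4% for Pax5, 91.5% for Id3, 91.3% for Pou2af1, 89.7% for Bfsp2, 88.9% for Akap12, 85.2% for Mzb1, 82.6% for Rag1 and 82.1% for Blk. Several members, Rag1 and Blk among them, were also read in stem-like cells. These are the cluster named HSC/MPP-like from its markers (all 12 of 12 listed markers raised, with Hlf, Flt3 and Adgrl4 among its leading genes), and they held 41.2% of the UMIs of Dntt, 30.5% of Ly6d, 25.1% of Cd72, 22.9% of Blk, 17.9% of Il7r, 16.6% of Rag1, 14.2% of Rag2 and 12.1% of Bach2. The sets overlap, since 0 to 15 B precursors per library were also stem-like.

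Some members had UMIs in other clusters. Bcl7a, a chromatin remodelling subunit, gave 22.3% of its UMIs in B precursors, and Cecr2, another chromatin factor, gave 50.7% there and 11.2% in a late erythroid cluster. Ms4a1 (CD20) gave 75.0% in B precursors by gene detection, but 50% of its UMIs lay in a small cluster led by Ccl5, Ms4a1 and Gzma. Fcrla, an Fc receptor-like protein of B cells, gave 36.8% in B precursors and 30.9% in a cluster led by H2-Aa, Cd74 and H2-Eb1. Mzb1, an endoplasmic reticulum chaperone of antibody secretion, had 10.6% in a plasma cell-like cluster led by Jchain, and Cd79b had 10.3% in promonocyte-like cells.

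**Figure D1:**
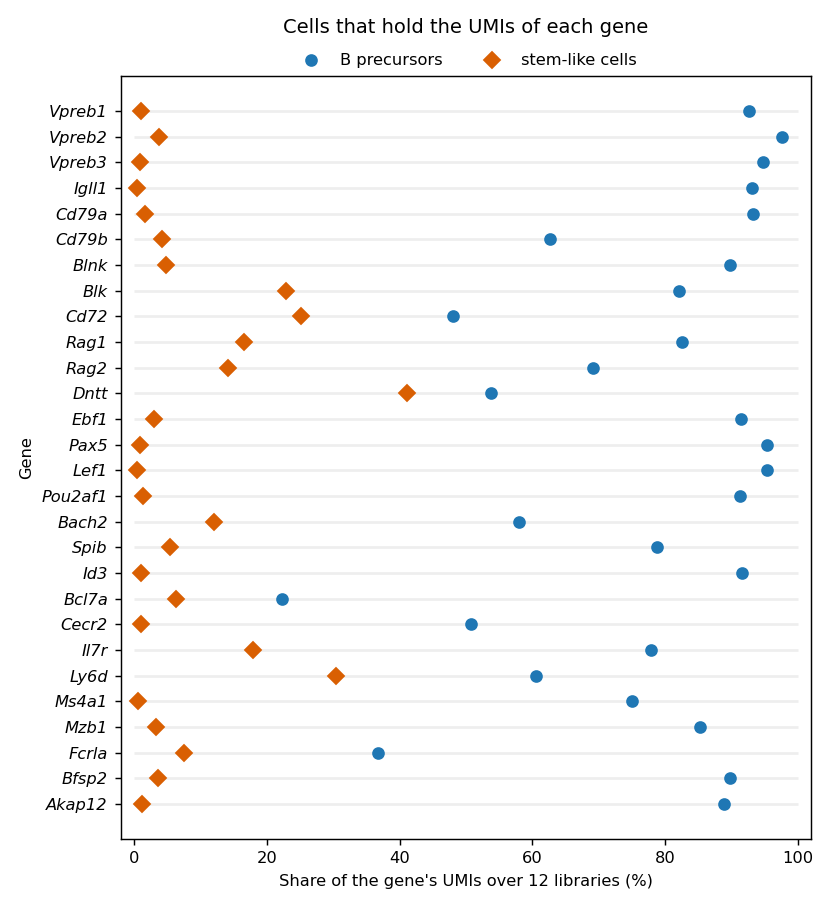
Percent of the UMIs of each of the 28 measured members found in B precursors and in stem-like cells, over the 12 libraries together; the horizontal axis is percent. Vpreb2 lay at 97.6% in B precursors, whereas Dntt had 53.7% in B precursors and 41.2% in stem-like cells, and Bcl7a had 22.3% and 6.31%.

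The share of B precursors among all cells was highest in E2-KO and lowest in G12D/E2-KO at T3. In WT it was 12.17% at T1 (286 of 2350 cells, exact 95% binomial interval 10.9% to 13.6%), 6.857% at T2 (195 of 2844 cells, 5.95% to 7.85%) and 0.9209% at T3 (22 of 2389 cells, 0.578% to 1.39%). In E2-KO it was 15.62% (14.2% to 17.1%), 15.83% (14.5% to 17.2%) and 13.26% (12.0% to 14.6%), from 382, 466 and 343 cells. Every E2-KO share was above every WT share, and WT varied over time far beyond its counting error. In G12D the shares were 1.49% (1.07% to 2.02%), 4.892% (4.07% to 5.83%) and 1.803% (1.32% to 2.4%), from 41, 118 and 46 cells. In G12D/E2-KO they were 2.135% (1.65% to 2.71%) and 4.38% (3.75% to 5.08%) at T1 and T2, from 65 and 165 cells, and at T3 0 of 2617 cells, which allows a share of up to 0.115% by a count of 3 and 0.141% by the exact interval.

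Against the library of the same time point, the E2-KO share was 1.28-fold, 2.31-fold and 14.4-fold that of WT at T1, T2 and T3. On the NRas G12D background the share with Ezh2 deleted was 1.43-fold and 0.895-fold that without at T1 and T2, and at least 15.7-fold lower at T3. Over these 6 matched pairs the mean log2 ratio was 0.30 ± 2.53 (SD, n = 6 pairs, 4 higher and 2 lower; exact two-sided sign-flip permutation p = 0.625, smallest possible 0.03125). This average of Ezh2-deleted over Ezh2-intact libraries is called the E2 effect, and its sign was not stable: it was -0.41 without WT T3 or without E2-KO T3 and 1.16 without G12D T3 or without G12D/E2-KO T3.

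The same pairing for NRas, the G12D effect, gave a mean log2 ratio of -2.35 ± 2.67 (SD, n = 6 pairs, 1 higher and 5 lower; exact two-sided sign-flip permutation p = 0.09375). The G12D share was 8.17-fold lower than WT at T1, 1.4-fold lower at T2 and 1.96-fold higher at T3, where WT itself was at 0.9209%. With Ezh2 deleted, the share with NRas G12D was 7.32-fold, 3.61-fold and at least 116-fold lower than without it. With T1 and T2 alone all 4 pairs were lower, with a mean log2 ratio of -2.06 ± 1.17 (SD, n = 4 pairs), where an exact permutation test cannot go below p = 0.125. The interaction, the log2 ratio of the NRas pairs with Ezh2 deleted minus that without, was -3.01 ± 4.24 (SD, n = 3 time points; exact permutation p = 0.5, smallest possible 0.25). It rested on T3, where the share of G12D/E2-KO was set to 3 cells: it was -0.60 without T3 and -4.60 without T1.

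**Figure D2:**
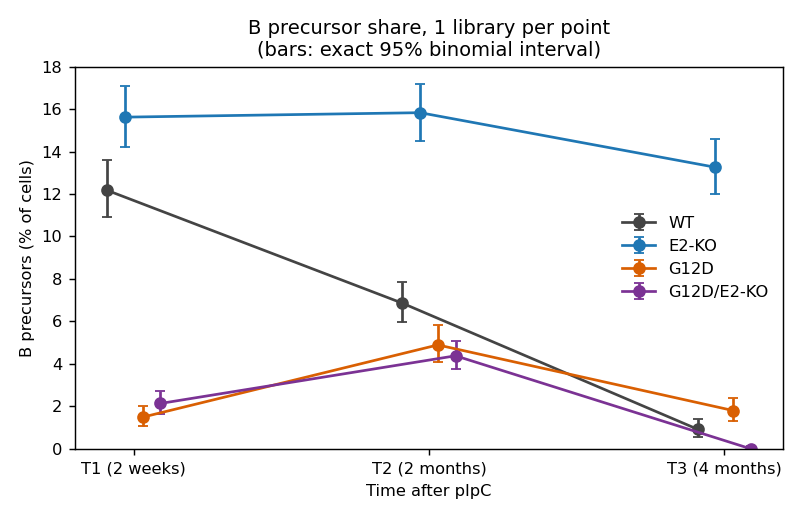
Percent of cells that were B precursors in each of the 12 libraries, with exact 95% binomial intervals that cover counting error only. The horizontal axis gives the time after pIpC, and colour gives the genotype. The 3 E2-KO libraries lie between 13.26% and 15.83%, the 6 libraries with NRas G12D at or below 4.892%, and G12D/E2-KO T3 at 0.

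Over all cells, the levels of most members were highest in E2-KO libraries and lowest in G12D/E2-KO at T3. In a sum over all cells, fewer cells of a type and less RNA per cell cannot be told apart. The late granulocyte list (8 genes) summed to 106800 to 125300 CPM in WT, 38040 to 56160 CPM in E2-KO, 108100 to 118200 CPM in G12D and 36700 to 143700 CPM in G12D/E2-KO. Its part in the levels of the members was not tested. Of the 28 members, 19 were highest in an E2-KO library, 25 were lowest in G12D/E2-KO at T3, and for 23 every E2-KO library was above every G12D and G12D/E2-KO library. The same counts were not made over all genes, so whether these orders are particular to the members was not tested. The members are also not independent of each other, since most were read mainly from B precursors. Per-library values below are in the order T1, T2 and T3.

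The surrogate light chain genes were each highest in an E2-KO library and lowest in G12D/E2-KO at T3. Vpreb1, which encodes the variable-like part of the surrogate chain, measured 223, 110.1 and 13.4 CPM in WT, 239.6, 287 and 237 CPM in E2-KO, 23.2, 93.3 and 34.3 CPM for G12D, and 24.8, 69.9 and 2.92 CPM in G12D/E2-KO. Igll1, which encodes the constant-like part (λ5), measured 235, 104 and 10.1 CPM in WT, 239.6, 285 and 159 CPM in E2-KO, 21.6, 92.4 and 31.5 CPM for G12D, and 23.8, 58.5 and 0.713 CPM in G12D/E2-KO. For Vpreb1 all 3 E2-KO libraries were above all 9 others, and for Igll1 the E2-KO library of T3 was below WT T1. Vpreb3, which binds newly made immunoglobulin chains, measured 253, 118 and 16 CPM in WT, 274, 286 and 308 CPM in E2-KO, 24.2, 93 and 38.3 CPM for G12D, and 36.7, 85.1 and 0.389 CPM in G12D/E2-KO. Vpreb2, a close copy of Vpreb1, measured 20.7, 7.74 and 2.31 CPM in WT, 22.2, 23.3 and 33.9 CPM in E2-KO, 2.79, 8.42 and 3.15 CPM for G12D, and 3.5, 5.82 and 0 CPM in G12D/E2-KO. Its 0 at T3 lies below a floor of 0.194 CPM (3 UMIs of 15434265), which makes it at least 174-fold lower than in E2-KO at T3. Of the 50-base windows, 18.8% of those of Vpreb1 and 32.8% of those of Vpreb2 occur in both, so how reads were divided between the pair is uncertain.

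Among the receptor and its signalling proteins the range was wide for Cd79a and Blnk and narrower for Cd79b and Cd72. Cd79a, the Igα signalling chain, measured 129, 59.5 and 7.27 CPM in WT, 144, 165 and 122 CPM in E2-KO, 16, 59.6 and 19.2 CPM for G12D, and 20.6, 37.9 and 0.389 CPM in G12D/E2-KO. Cd79b, its partner Igβ, measured 71.8, 40.9 and 13.4 CPM in WT, 67.6, 83.3 and 53.5 CPM in E2-KO, 22.7, 33.9 and 26.4 CPM for G12D, and 22.6, 28.2 and 12.2 CPM in G12D/E2-KO. At T3 in G12D/E2-KO, then, Cd79b RNA was still at the WT level of that time point while Cd79a was near 0. Blnk, the adaptor that links the receptor to its downstream enzymes, measured 35.4, 19.3 and 2.92 CPM in WT, 31.4, 41.6 and 29 CPM in E2-KO, 5.12, 14.4 and 6.29 CPM for G12D, and 6.78, 11.7 and 0.13 CPM in G12D/E2-KO. Cd72, an inhibitory co-receptor, measured 10.6, 6.77 and 2.97 CPM in WT, 6.42, 6.77 and 3.64 CPM in E2-KO, 4.56, 5.8 and 3.27 CPM for G12D, and 3.14, 4.53 and 1.88 CPM in G12D/E2-KO. The Cd72 ranges of all 4 genotypes overlapped. Blk, a SRC-family kinase of B cells, ranged from 0 to 1.66 CPM.

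Among the recombination genes, Dntt was highest in G12D/E2-KO at T2, and Rag1 and Rag2 were highest in E2-KO libraries. Dntt, the polymerase that adds bases at the junctions, measured 78.1, 55.8 and 9.89 CPM in WT, 84.7, 83.7 and 102 CPM in E2-KO, 37.3, 38 and 36.2 CPM for G12D, and 39.4, 103 and 0.777 CPM in G12D/E2-KO. Its G12D/E2-KO values thus spanned from the highest to the lowest of the 12 libraries within the time course. Rag1 and Rag2, the paired subunits of the recombinase, ranged from 0 to 17.2 CPM and from 0.194 to 7.05 CPM, each with its maximum in an E2-KO library. Rag1 at T3 was at least 88.3-fold lower in G12D/E2-KO than in E2-KO.

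Of the transcription regulators, Ebf1, the pioneer factor of the lineage, measured 193, 95.1 and 22.1 CPM in WT, 172, 168 and 213 CPM in E2-KO, 30, 77.4 and 33.8 CPM for G12D, and 34.3, 67.9 and 7.45 CPM in G12D/E2-KO. Lef1, a partner of WNT signalling active in pro-B cells, measured 28, 8.75 and 1.84 CPM in WT, 12.3, 14.2 and 20.2 CPM in E2-KO, 2.48, 7.97 and 2.55 CPM for G12D, and 2.83, 4.25 and 0.0648 CPM in G12D/E2-KO. For both genes WT T1 lay within or above the E2-KO range. Pou2af1, a coactivator of OCT factors, measured 23.5, 11.3 and 1.59 CPM in WT, 22.3, 20.8 and 22 CPM in E2-KO, 2.23, 8.82 and 2.38 CPM for G12D, and 2.65, 6.19 and 0.194 CPM in G12D/E2-KO. Id3, an inhibitor of E proteins, measured 27, 15.5 and 2.25 CPM in WT, 19.5, 21.5 and 15 CPM in E2-KO, 2.03, 10.4 and 2.91 CPM for G12D, and 2.87, 5.44 and 0.194 CPM in G12D/E2-KO. Spib, an ETS factor shared by B cells and plasmacytoid dendritic cells, measured 3.56, 1.65 and 0.358 CPM in WT, 3.58, 3.11 and 3.09 CPM in E2-KO, 0.406, 1.14 and 0.891 CPM for G12D, and 0.718, 0.593 and 0.13 CPM in G12D/E2-KO. Every E2-KO value of these 5 genes was above every value with NRas G12D.

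Bcl7a did not follow this order. It measured 36.4, 22.7 and 23 CPM in WT, 25.1, 28.1 and 30 CPM in E2-KO, 15.1, 25.4 and 15.7 CPM for G12D, and 15.2, 17.3 and 20.1 CPM in G12D/E2-KO, and all 4 genotypes stayed above 15 CPM at every time point. Pax5, which commits cells to the lineage, ranged from 0 to 29.3 CPM and was at 0 in G12D/E2-KO at T3, at least 151-fold lower than in E2-KO. Bach2 and Cecr2 ranged from 1.43 to 18.3 CPM and from 3.04 to 33.1 CPM, each highest in E2-KO at T3.

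Of the surface proteins, Ly6d, an early mark of B cell commitment among lymphoid progenitors, measured 41, 23.9 and 5.38 CPM in WT, 87.2, 76.4 and 67.4 CPM in E2-KO, 30.1, 21.5 and 26.1 CPM for G12D, and 42, 38.8 and 0.648 CPM in G12D/E2-KO. Every E2-KO library was above the other 9. Il7r, the receptor for the growth factor IL-7, ranged from 0.648 to 19.2 CPM. Mzb1 measured 115, 49.6 and 4 CPM in WT, 94.8, 97.5 and 78.3 CPM in E2-KO, 9.03, 46.2 and 12.6 CPM for G12D, and 18.5, 28.3 and 0.194 CPM in G12D/E2-KO. Bfsp2, a filament protein known from the lens, measured 69.2, 29.5 and 4.87 CPM in WT, 92.1, 98.5 and 62.7 CPM in E2-KO, 9.18, 40.7 and 12.5 CPM for G12D, and 11.1, 25.4 and 2.59 CPM in G12D/E2-KO. At T1 the WT level lay within the E2-KO range for Bfsp2 and above it for Mzb1. Ms4a1, a membrane protein of later B cells, measured 3.21, 0.634 and 0.666 CPM in WT, 1.16, 1.16 and 1.11 CPM in E2-KO, 0.304, 0.114 and 0.119 CPM for G12D, and 0.135, 0.108 and 0.13 CPM in G12D/E2-KO. All 6 Ms4a1 values without NRas G12D (13 to 54 UMIs per library) were above all 6 values with it (2 to 6 UMIs per library, in 5 of them at or under the floor of 3), so the Ms4a1 fold changes given below are not bounds. Akap12, a kinase anchoring protein, and Fcrla ranged from 0.0648 to 12.2 CPM and from 0.194 to 3.32 CPM.

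**Figure D3:**
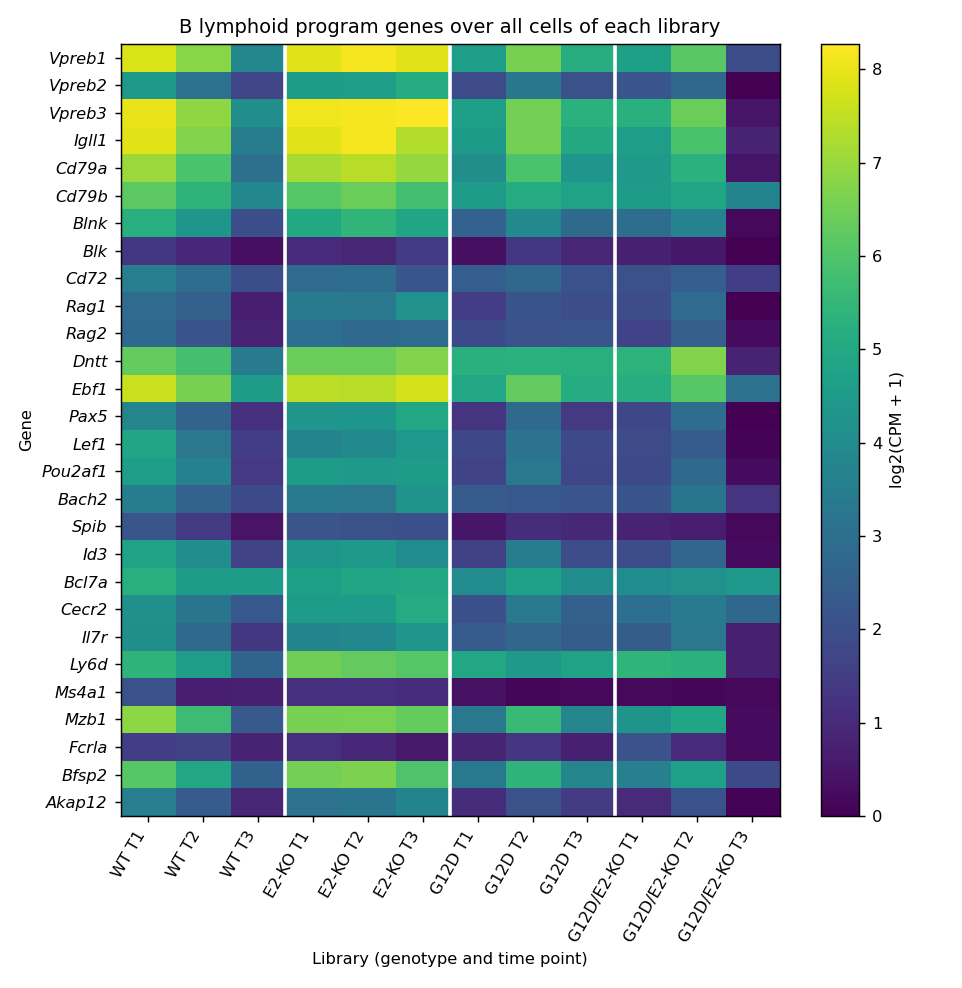
Heat map of log2(CPM + 1) of the 28 measured members (rows) over all cells of the 12 libraries (columns, by genotype and time point). The E2-KO columns are evenly high over the 3 time points, WT is high at T1 and low at T3, and in the G12D/E2-KO T3 column Vpreb1 stands at 2.92 CPM and Bcl7a at 20.1 CPM.

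Few of these differences passed edgeR's quasi-likelihood test with Benjamini-Hochberg adjustment over the 13143 genes tested (threshold 0.05, time point as a block). All 28 measured members entered the fit. Ms4a1 passed the filter on low counts through the libraries without NRas G12D. A fall was thus the only direction open to Ms4a1 with NRas G12D, here and in the comparisons below. For the G12D effect 3 of 28 members passed and all fell: Ms4a1 by -3.04 ± 0.41 (log2 fold change ± SE, adjusted p = 0.0177), Spib by -1.87 ± 0.45 (adjusted p = 0.0456) and Bcl7a by -0.61 ± 0.15 (adjusted p = 0.047). Of all genes 4.93% passed this contrast, 2.5% in the lower direction. This share rested on single libraries too: the 648 genes became 2 without WT T1 or G12D T1, 3 without G12D T3, 5 without E2-KO T1 or E2-KO T2, 19 without WT T3, 28 without G12D/E2-KO T2, 73 without E2-KO T3, 179 without G12D/E2-KO T1, 1366 without G12D T2 and 1594 without G12D/E2-KO T3. The median over the members was -1.87 against about 0 over all genes, with 27 of 28 negative and 20 at an unadjusted p under 0.05, as were 26.6% of all genes. DESeq2 passed 14 members, all lower, and 11.5% of all genes, among them Vpreb1, Igll1, Ebf1, Cd79b and Id3. These calls rested on single libraries. Ms4a1 was lost without WT T1 (adjusted p = 0.0535), E2-KO T2 (0.0555), G12D T1 (0.0982) or G12D T3 (0.0583). Spib was kept only without G12D T2 or G12D/E2-KO T3 and lost without any of the other 10 libraries (adjusted p = 0.0662 to 0.126), as with no filter on low counts (0.0547), and Bcl7a was kept only without WT T2, G12D T2 or G12D/E2-KO T3 and lost without any of the other 9 (adjusted p = 0.0834 to 0.149). With B precursors left out of the sums, 25 members entered the fit, Ms4a1 not among them for its low counts, and none passed (Spib -1.02 ± 0.46, adjusted p = 0.185, and Bcl7a -0.37 ± 0.13, adjusted p = 0.0943). The counts of the 7 genes that define B precursors are lowered by this step itself.

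The 3 comparisons of a mutant with WT share the WT libraries. In E2-KO against WT 0 of 28 members passed (1 at an unadjusted p under 0.05, 0 by DESeq2), where 1.65% of all genes did, and the median of the members was 1.27 (0.49 without E2-KO T3, 2.20 without WT T1). In G12D against WT 0 passed (2 at an unadjusted p under 0.05, 1 by DESeq2, Ms4a1), where 0.107% of all genes did, and the median was -0.74. The sign of this median rested on WT T1, since it was 0.12 without that library, -0.20 without G12D T1 and -1.32 without WT T3. In G12D/E2-KO against WT 2 passed and both fell, Ms4a1 by -3.37 ± 0.58 (adjusted p = 0.013) and Cd72 by -1.08 ± 0.24 (adjusted p = 0.0341). There 5.71% of all genes passed and 1.99% of all genes fell, and the median of the members was -1.50 (-0.60 without WT T1). The Ms4a1 call was lost without WT T1 (adjusted p = 0.065) or G12D/E2-KO T2 (0.0542). The Cd72 call was lost without WT T1 (adjusted p = 0.134), WT T3 (0.0794), E2-KO T1 (0.0529), E2-KO T2 (0.0523), G12D/E2-KO T1 (0.0811) or G12D/E2-KO T2 (0.0777), with the cells as deposited (0.0517), without the time point block (0.142) and without B precursors (-0.48, adjusted p = 0.285).

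The shares of all genes at an unadjusted p under 0.05 and by DESeq2 were 16.2% and 3.5% in E2-KO, 11.8% and 1.08% in G12D, and 26.3% and 10.1% in G12D/E2-KO against WT. They were 25.9% and 9.57% for the E2 effect, 3.73% and 0.441% for the interaction, and 13% and 0.152% for T3 against T1.

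For the E2 effect over all cells 0 of 28 members passed (2 at an unadjusted p under 0.05, 0 by DESeq2), while 7.02% of all genes did. The median of the members was 0.26, and its sign was not stable: it was -0.25 without E2-KO T3, -0.11 without G12D/E2-KO T2 and 0.87 without WT T1. For the interaction 0 passed (1 at an unadjusted p under 0.05, 0 by DESeq2) against 0.0913% of all genes, and for T3 against T1 0 passed (4 at an unadjusted p under 0.05, 1 by DESeq2) against 0% of all genes, with all 28 estimates negative and a median of -1.08 (-0.50 without WT T1, -1.99 without E2-KO T3). Over cells other than B precursors 1 of 25 tested members passed the E2 effect, against 6.46% of all genes: Cecr2 rose by 1.37 ± 0.30 (log2, adjusted p = 0.0253). At T1 and T2 alone Ly6d rose in E2-KO against WT by 1.35 ± 0.17 (log2, adjusted p = 0.00262) and with the E2 effect by 1.0 ± 0.12 (adjusted p = 0.000977), and it fell with the G12D effect by -0.59 ± 0.12 (adjusted p = 0.0343). Of all genes 1.43%, 3.97% and 3.05% passed these 3 contrasts at T1 and T2. The other members that passed the G12D effect there were Ms4a1 (-3.08 ± 0.49, adjusted p = 0.0194), Spib (-1.95 ± 0.35, adjusted p = 0.0307) and Cd79b (-1.22 ± 0.19, adjusted p = 0.0308), all lower. In G12D/E2-KO against WT Ms4a1 (-3.69 ± 0.71, adjusted p = 0.0213) and Cd72 (-1.13 ± 0.26, adjusted p = 0.0397) passed, with 4.78% of all genes. The same test with 3 time points gave Ly6d 2.10 ± 1.02 in E2-KO against WT (adjusted p = 0.37).

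Within stem-like cells Vpreb1 and Igll1 fell with NRas G12D, and none of the 3 recombination or 2 early lymphoid surface members passed any contrast over 3 time points. Each library had 110 to 383 such cells, and 18 of the 28 members passed the filter on low counts, with 8536 genes tested. Vpreb1 in stem-like cells measured 36.7, 46 and 5.22 CPM in WT, 62.7, 70.1 and 25.6 CPM in E2-KO, 14.7, 8.75 and 6.07 CPM for G12D, and 7.57, 9.07 and 1.3 CPM in G12D/E2-KO. Igll1 measured 24.5, 25.1 and 0 CPM in WT, 23, 29.9 and 8.55 CPM in E2-KO, 4.4, 5.25 and 1.01 CPM for G12D, and 2.75, 5.18 and 0 CPM in G12D/E2-KO. Before T3 both genes were lower in every library with NRas G12D than in every library without it, and at T3 the WT levels were as low as those with NRas G12D. With the G12D effect Vpreb1 fell by -2.17 ± 0.25 (log2, adjusted p = 1.24e-05) and Igll1 by -2.41 ± 0.37 (adjusted p = 0.00197). These were 2 of 18 members, where 0.141% of all genes passed (5.99% at an unadjusted p, 0.141% by DESeq2) and 0.0351% in the lower direction. Vpreb1 passed without any 1 of the 12 libraries, and Igll1 was lost without WT T1 (adjusted p = 0.0535). Both calls were lost without the time point block (adjusted p = 0.49 and 0.681). With NRas G12D, Igll1 reached at most 5.25 CPM, which in G12D T2 is the floor of 3 UMIs. Igll1 passed the filter on low counts through libraries without NRas G12D, and Vpreb1 mainly so, with G12D T1 as its highest value otherwise. The direction of the Igll1 fall was thus set by the filter, here and in G12D/E2-KO against WT, and its fold change is not a bound.

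Vpreb1 and Igll1 were also read in late granulocyte-like cells, which do not make a pre-B cell receptor. There Vpreb1 measured 21.9, 10.2 and 2.1 CPM in WT, 18.5, 15.4 and 11.7 CPM in E2-KO, 4.09, 5.18 and 4.21 CPM for G12D, and 3.24, 7.08 and 1.15 CPM in G12D/E2-KO. Igll1 in the same cells was 19.9, 7.5 and 2.1 CPM in WT, 20.3, 18.5 and 11.7 CPM in E2-KO, 2.23, 6.59 and 3.04 CPM for G12D, and 1.76, 5.24 and 0 CPM in G12D/E2-KO. In WT T3, E2-KO T3, G12D T2, G12D T3 and G12D/E2-KO T2 this was above the Igll1 level in stem-like cells, and in the other libraries at or below it. Without the B precursors among the stem-like cells no member passed the G12D effect (Vpreb1 -1.48 ± 0.32, adjusted p = 0.0502, and Igll1 -1.40 ± 0.51, adjusted p = 0.54), and with stem-like cells chosen instead by 3 or more of 7 detected stem cell genes none did. Vpreb1 and Igll1 are among the 7 genes that define B precursors, so leaving these cells out lowers the counts of both genes by construction, here and in the comparisons below. The part of free RNA in the Vpreb1 and Igll1 differences was not tested.

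In G12D/E2-KO against WT 3 of 18 members passed in stem-like cells, where 0.879% of all genes did (12.1% at an unadjusted p, 0.41% by DESeq2). Vpreb1 fell by -2.10 ± 0.36 (adjusted p = 0.00219), Igll1 fell by -2.40 ± 0.51 (adjusted p = 0.0185) and Bfsp2 rose by 1.35 ± 0.32 (adjusted p = 0.0346). Bfsp2 measured 13.5, 18.8 and 11.5 CPM in WT, 28.1, 29.9 and 19.2 CPM in E2-KO, 18.3, 19.2 and 32.4 CPM for G12D, and 39.9, 42.8 and 22.1 CPM in G12D/E2-KO, with no overlap between WT and G12D/E2-KO. The Bfsp2 call was lost without any 1 of the 3 WT libraries (adjusted p = 0.131 to 0.204) or without G12D/E2-KO T1 (0.145) or T2 (0.183), and by DESeq2 (0.19), and without the time point block no member passed (adjusted p = 0.0675 to 0.504). The Bfsp2 estimate was -0.93 with stem-like cells chosen by detected genes. Vpreb1 was lost without WT T2 (adjusted p = 0.1), and Igll1 without WT T1 (0.222), WT T2 (0.186), G12D/E2-KO T1 (0.114) or G12D/E2-KO T2 (0.0775) and at Leiden resolution 1 (0.0988). DESeq2 kept Vpreb1 (adjusted p = 0.00684) and gave Igll1 none. Without the B precursors among the stem-like cells both were lost (Vpreb1 -1.22 ± 0.46, adjusted p = 0.263, and Igll1 -1.11 ± 0.74, adjusted p = 0.575), while Bfsp2 passed (1.58 ± 0.36, adjusted p = 0.0321). At T1 and T2 alone Vpreb1 (-2.18 ± 0.35, adjusted p = 0.00038), Igll1 (-2.48 ± 0.43, adjusted p = 0.00131) and Bfsp2 (1.46 ± 0.32, adjusted p = 0.0145) passed here. With the G12D effect at T1 and T2 Vpreb1 fell by -2.25 ± 0.24 (adjusted p = 8.24e-07), Igll1 by -2.43 ± 0.32 (adjusted p = 2.78e-05) and Vpreb3 by -1.79 ± 0.34 (adjusted p = 0.0442), where 0.39% of all genes passed. In E2-KO against WT 0 of 18 passed (5 at an unadjusted p under 0.05, 0 by DESeq2) against 0.176% of all genes (9.42% at an unadjusted p, 0.234% by DESeq2), and in G12D against WT 0 passed (3 at an unadjusted p under 0.05, 0 by DESeq2) against 0.164% (5.53% and 0.105%).

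Ly6d in stem-like cells was above WT in all 3 mutants at T1 and T2. It measured 133, 111 and 17.8 CPM in WT, 492, 299 and 201 CPM in E2-KO, 227, 247 and 284 CPM for G12D, and 388, 229 and 5.21 CPM in G12D/E2-KO. The 8 libraries of the mutants other than G12D/E2-KO T3 lay above all 3 WT libraries. The fit with 3 time points gave 2.12 ± 0.95 in E2-KO against WT (log2, adjusted p = 0.563). At T1 and T2 alone Ly6d rose by 1.74 ± 0.20 in E2-KO (adjusted p = 6.78e-07), by 1.04 ± 0.20 in G12D (adjusted p = 0.0122) and by 1.42 ± 0.19 in G12D/E2-KO against WT (adjusted p = 3.51e-05), with an interaction of -1.37 ± 0.27 (adjusted p = 0.0139). In these 4 contrasts 0.329%, 0.158%, 0.755% and 0.146% of all genes passed. Mzb1 also passed in E2-KO (1.43 ± 0.31, adjusted p = 0.022) and Igll1 in G12D against WT (-2.21 ± 0.47, adjusted p = 0.0376) at T1 and T2. In late granulocyte-like cells Ly6d was at most 4.32 CPM in any library.

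Dntt measured 274, 473 and 133 CPM in stem-like cells of WT, 610.1, 528 and 744 CPM in E2-KO, 399, 249 and 389 CPM for G12D, and 464, 806 and 13 CPM in G12D/E2-KO. Every E2-KO library was above every WT and G12D library. Rag1 measured 11, 12.6 and 3.13 CPM in WT, 26.9, 36.8 and 42.7 CPM in E2-KO, 7.34, 17.5 and 10.1 CPM for G12D, and 25.5, 17.5 and 0 CPM in G12D/E2-KO. Mzb1 measured 20.8, 27.2 and 5.22 CPM in WT, 80.6, 47.1 and 36.3 CPM in E2-KO, 11.7, 8.75 and 13.1 CPM for G12D, and 56.4, 36.3 and 0 CPM in G12D/E2-KO. For Rag1 and Mzb1 the E2-KO libraries lay above all WT and all G12D libraries. For the E2 effect 0 of 18 members passed over 3 time points (3 at an unadjusted p under 0.05, 0 by DESeq2), where 1.07% of all genes did (14.9% at an unadjusted p, 0.433% by DESeq2). Without T3, 4 members rose, Mzb1 by 1.79 ± 0.23 (adjusted p = 1.15e-05), Rag1 by 1.24 ± 0.28 (adjusted p = 0.0243), Ly6d by 1.06 ± 0.14 (adjusted p = 1.05e-05) and Bfsp2 by 1.02 ± 0.24 (adjusted p = 0.0282), where 1.03% of all genes passed and 0.621% in the higher direction. Ly6d, Dntt, Rag1 and Mzb1 were thus all near 0 or at their lowest in the same library, G12D/E2-KO at T3, in which 183 stem-like cells were read. The stem-like cells of that library also stood apart in markers of other cell types. The megakaryocyte list (6 genes) summed to 211 CPM there and to 20.5 to 55.4 CPM in the other 11 libraries, the basophil and mast cell list (6 genes) to 209.8 CPM against 27.2 to 79.6 CPM, and the promonocyte list (5 genes) to 36.5 CPM against 75.2 to 255 CPM. Their part in the levels of the members was not tested.

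Markers of plasmacytoid dendritic cells, which share Ly6d and Dntt with lymphoid progenitors, summed to 551, 374 and 278 CPM in stem-like cells of WT, 626, 496 and 509 CPM in E2-KO, 652, 459 and 705 CPM for G12D, and 650, 542 and 155 CPM in G12D/E2-KO (8 listed genes, of which 5 to 8 had a UMI in a library). The plasma cell list, led by Jchain, summed to 6.51 to 40.3 CPM in 11 libraries and 722 CPM in E2-KO T3. The part of either cell type in the levels of Ly6d, Dntt and Mzb1 was not tested. For the interaction 0 of 18 members passed (2 at an unadjusted p under 0.05, 0 by DESeq2) against 0.0469% of all genes (4.02% at an unadjusted p, 0.0351% by DESeq2). For T3 against T1 2 of 18 fell, Vpreb1 by -1.73 ± 0.34 (adjusted p = 0.0325) and Igll1 by -2.76 ± 0.60 (adjusted p = 0.0449), where 0.223% of all genes passed (9.97% at an unadjusted p, 0.129% by DESeq2) and 0.164% in the lower direction. By DESeq2 Vpreb1 had an adjusted p of 0.053 and Igll1 was given none. In edgeR the Vpreb1 call was lost without any 1 of 5 libraries (WT T1, T2 or T3, G12D T1, G12D/E2-KO T1; adjusted p = 0.0547 to 0.197) and the Igll1 call without any 1 of 7 (the same and E2-KO T1 or T2; adjusted p = 0.0622 to 0.307). Igll1 was lost with the cells as deposited (-2.70, adjusted p = 0.0652), and both were lost without the B precursors among the stem-like cells (Vpreb1 -0.94, adjusted p = 0.474, and Igll1 -2.39, adjusted p = 0.264). At Leiden resolution 1 Igll1 was lost too (adjusted p = 0.159).

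**Figure D4:**
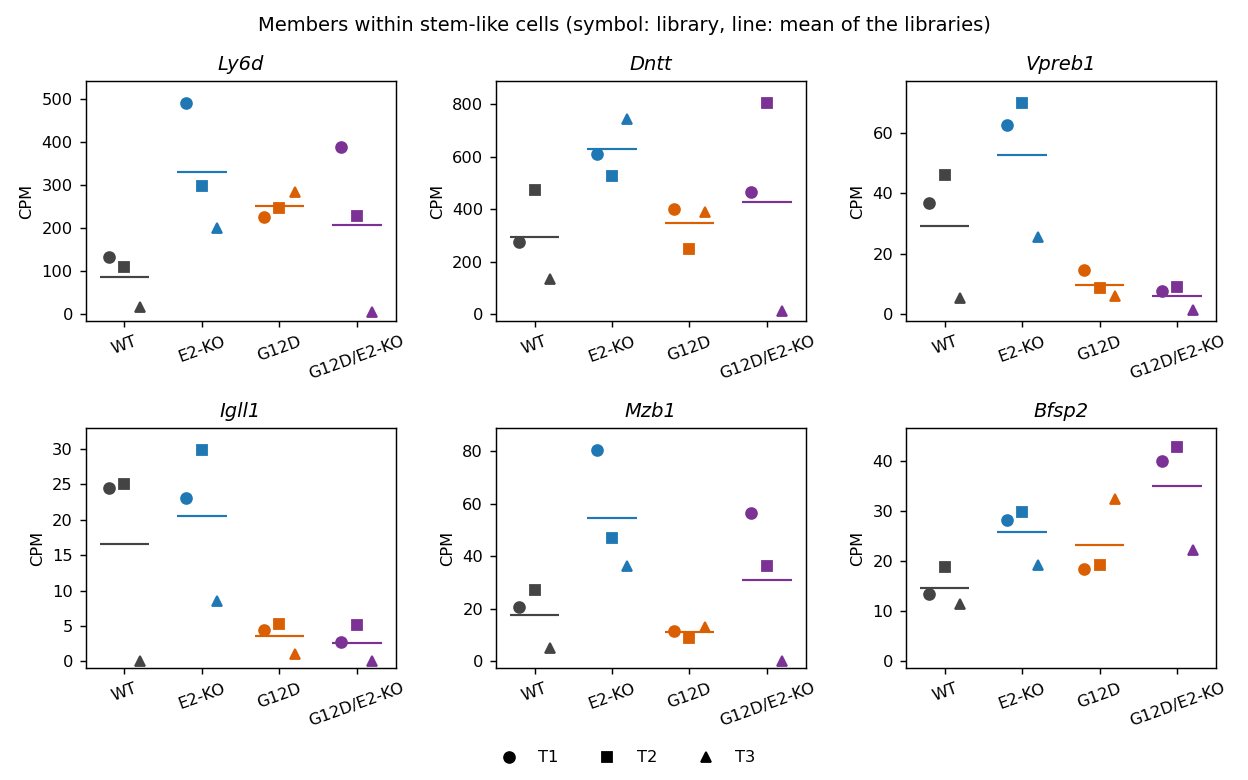
Levels in CPM within stem-like cells of Ly6d, Dntt, Vpreb1, Igll1, Mzb1 and Bfsp2 for the 4 genotypes; circles are T1, squares T2 and triangles T3, and the line is the mean of the 3 libraries. Ly6d in G12D/E2-KO runs from 388 CPM at T1 to 5.21 CPM at T3, and Bfsp2 of G12D/E2-KO lies above 22 CPM at all time points, above the 3 WT libraries.

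Within B precursors the levels are CPM, a gene's share of the UMIs summed over these cells, and not RNA per cell, and the median depth per B precursor ran from 2407 UMIs in G12D/E2-KO T2 to 5215.5 UMIs in WT T1. It used 11 libraries, because G12D/E2-KO at T3 had no such cell, so that G12D/E2-KO entered with T1 and T2. The 7 selecting genes were described and not tested: over these libraries Vpreb1 measured 1431 to 2390 CPM, Vpreb3 1834 to 3015, Igll1 1159 to 2352, Ebf1 1399 to 2147, Cd79a 793 to 1406, Blnk 230.5 to 407 and Lef1 103 to 238 CPM. All 21 other measured members were tested, among 7580 genes.

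Pax5 and Ly6d took a larger share of the UMIs of B precursors where Ezh2 was deleted. Pax5 measured 105, 92.6 and 142 CPM in WT, 159, 163 and 257 CPM in E2-KO, 106, 146 and 118 CPM for G12D, and 155 and 224 CPM in G12D/E2-KO. All 5 libraries with Ezh2 deleted were above all 6 with it intact, and Pax5 rose with the E2 effect by 0.84 ± 0.15 (log2, adjusted p = 0.00124). Counted per cell the libraries were not separated in this way, with 110 Pax5 UMIs in 165 cells of G12D/E2-KO T2 and 21 in 22 cells of WT T3. Ly6d measured 246, 319 and 373 CPM in WT, 564, 558 and 519 CPM in E2-KO, 336, 288 and 587 CPM for G12D, and 933 and 474 CPM in G12D/E2-KO. Here only G12D T3 (46 cells) overlapped the deleted libraries, and Ly6d rose by 1.0 ± 0.17 (adjusted p = 0.00413). The Pax5 call was lost without G12D/E2-KO T2 (0.72, adjusted p = 0.0547), and the Ly6d call held without any 1 of the 11 libraries but was lost with the cells as deposited (0.73, adjusted p = 0.202) and with a minimum of 2 detected genes (1.09, adjusted p = 0.14).

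Rag1 passed for both mutations and Rag2 for NRas G12D. Rag1 measured 48.1, 79.6 and 54.2 CPM in WT, 70.0, 70.7 and 138 CPM in E2-KO, 102, 80.7 and 137 CPM for G12D, and 125 and 172 CPM in G12D/E2-KO. It rose with the E2 effect by 0.69 ± 0.17 (adjusted p = 0.0307) and with the G12D effect by 0.80 ± 0.18 (adjusted p = 0.0239). Rag2 measured 42.5, 47.1 and 61 CPM in WT, 47.9, 43.4 and 49.3 CPM in E2-KO, 85.1, 62.3 and 142 CPM for G12D, and 53.7 and 100 CPM in G12D/E2-KO, and it rose with the G12D effect by 0.90 ± 0.19 (adjusted p = 0.0172). All 5 Rag1 libraries with NRas G12D were above every WT library, and for Rag2 4 of 5 were above all 6 without it. Without the time point block no recombinase call passed (adjusted p = 0.11 to 0.352). The Rag2 call was lost without WT T1 (adjusted p = 0.0734), E2-KO T2 (0.056), G12D T1 (0.0511), G12D T3 (0.094) or G12D/E2-KO T2 (0.436). For Rag1 the G12D effect was lost without WT T1, E2-KO T1, E2-KO T2, G12D T1, G12D T3 or G12D/E2-KO T2 (adjusted p = 0.0537 to 0.128), and the E2 effect without WT T1, WT T3, E2-KO T1, E2-KO T3, G12D T2, G12D T3 or G12D/E2-KO T2 (adjusted p = 0.0544 to 0.249). The E2 effect on Rag1 was also lost with the cells as deposited (0.61 ± 0.18, adjusted p = 0.114), by DESeq2 (adjusted p = 0.11) and at T1 and T2 alone (adjusted p = 0.132), and the Rag2 call at T1 and T2 alone (adjusted p = 0.0983). With a minimum of 4 detected genes neither recombinase gene passed (adjusted p = 0.136 to 0.26).

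Fcrla fell with the E2 effect by -1.92 ± 0.48 (adjusted p = 0.0307). It measured 10.3, 24.4 and 54.2 CPM in WT, 5.07, 3.21 and 1.47 CPM in E2-KO, 12.8, 21.2 and 23.7 CPM for G12D, and 11.9 and 2.04 CPM in G12D/E2-KO, from 1 to 30 UMIs per library. All 3 E2-KO libraries were below all WT and G12D libraries. All Fcrla values above 12.8 CPM were in libraries with Ezh2 intact, through which it passed the filter on low counts. A fall was thus the only direction open to Fcrla, which is still counted among the members passing below. The call was lost without WT T2 (adjusted p = 0.0868), E2-KO T2 (0.0522), E2-KO T3 (0.14), G12D T2 (0.173) or G12D/E2-KO T2 (0.376), with the cells as deposited (0.0683), with a minimum of 2 detected genes (0.33) and at T1 and T2 alone (0.084). In all, 4 of 21 members passed the E2 effect (3 by DESeq2), where 2.68% of all genes did (1.25% by DESeq2), with a median of 0.14, and 2 of 21 passed the G12D effect (2 by DESeq2), where 0.607% of all genes did (0.752% by DESeq2) and 0.435% in the higher direction, with a median of 0.23.

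Cd72 and Id3 stood near the threshold. Cd72 measured 67.8, 60.1 and 47.5 CPM in B precursors of WT, 31.8, 38.9 and 24.3 CPM in E2-KO, 76.6, 85 and 61.5 CPM for G12D, and 65.6 and 49 CPM in G12D/E2-KO, an E2 effect of -0.62 ± 0.18 (adjusted p = 0.0528). Id3 measured 223, 274 and 237 CPM in WT, 159, 177 and 132 CPM in E2-KO, 128, 246 and 175 CPM for G12D, and 131 and 157 CPM in G12D/E2-KO, an E2 effect of -0.43 ± 0.14 (adjusted p = 0.0909). For both genes the E2-KO libraries lay below all WT libraries, and for Cd72 below all G12D libraries too. At T1 and T2 alone, Pax5 (0.70 ± 0.15, adjusted p = 0.0147) and Ly6d (1.14 ± 0.18, adjusted p = 0.00703) passed the E2 effect, and Rag1 (0.83 ± 0.18, adjusted p = 0.0315) the G12D effect, where 1.37% and 0.645% of all genes passed.

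Markers of other cell types were read in the same B precursors. From 29 of 41 in G12D T1 to 320 of 343 in E2-KO T3 lay in the cluster named B lymphoid from its markers. The late granulocyte list (8 genes) summed to 8914 to 21340 CPM in WT, 2665 to 9369 CPM in E2-KO, 3983 to 19890 CPM in G12D and 12430 to 28870 CPM in G12D/E2-KO. The granulocyte-macrophage progenitor and early granulocyte list (6 genes) summed to 779.7 to 6244 CPM over these libraries. The HSC/MPP list (12 genes) summed to 292 to 361 CPM in the 5 libraries with NRas G12D and to 156 to 274 CPM in the 6 without it, with no overlap. The MEP and early erythroid list (6 genes) summed to 182 to 292 CPM in G12D/E2-KO and to 523 to 1702 CPM in the others. The mature B cell list (9 of 13 genes measured) summed to 340 to 922 CPM in B precursors of WT, 219 to 310 CPM in E2-KO, 415 to 507 CPM in G12D and 255 to 501 CPM in G12D/E2-KO. The plasma cell list (4 of 10 genes measured) summed to 13.5 to 1155 CPM in WT, 1242 to 2906 CPM in E2-KO, 0 to 9038 CPM in G12D and 2045 to 2835 CPM in G12D/E2-KO, nearly all of it Jchain. For the plasma cell list the G12D range spanned all others, and for the mature B cell list the ranges of WT, G12D and G12D/E2-KO overlapped while all E2-KO libraries lay below all WT and all G12D libraries, as they did for Fcrla and Cd72. The part of depth and of these markers in the Pax5, Ly6d, Rag1, Rag2, Fcrla and Cd72 differences was not tested.

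**Figure D5:**
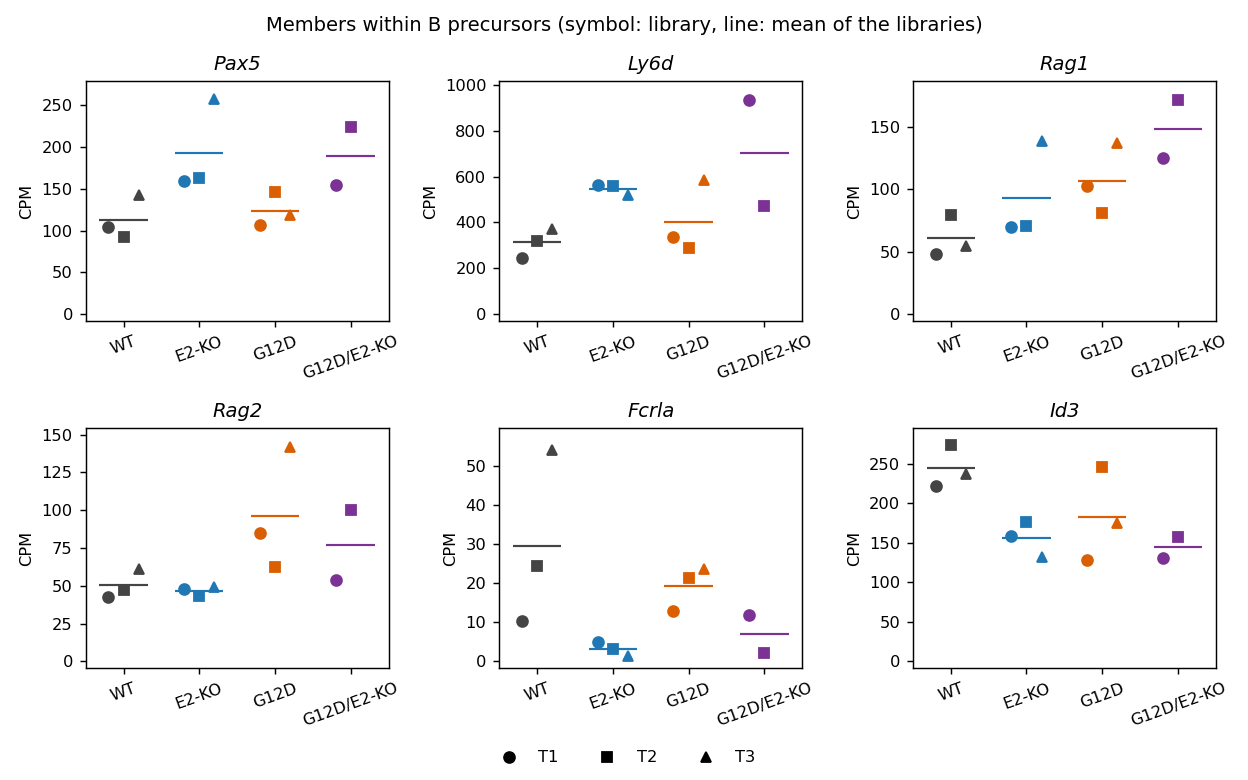
Levels in CPM within B precursors of Pax5, Ly6d, Rag1, Rag2, Fcrla and Id3 for the 4 genotypes; circles are T1, squares T2 and triangles T3, and the line is the mean of the libraries (G12D/E2-KO has T1 and T2 only). For Pax5 the 5 libraries with Ezh2 deleted lie at 155 CPM or more and the 6 others at 146 CPM or less.

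Other genes of the pathway were taken from 4 lists with 52 genes: 18 early lymphoid and B lineage factors, 12 of pre-B cell receptor signalling, 11 of IL-7 and FLT3 signalling and 11 of V(D)J end joining. Over all cells 4 of 52 passed the G12D effect (18 at an unadjusted p under 0.05, 14 by DESeq2), against 4.93%, 26.6% and 11.5% of all genes. Tcf3, which encodes E2A, fell by -0.54 ± 0.12 (log2, adjusted p = 0.0397), and Bcl11a, a zinc finger repressor needed for lymphoid development, by -0.52 ± 0.12 (adjusted p = 0.0397). Lyn, a SRC-family kinase also active in myeloid cells, rose by 0.45 ± 0.11 (adjusted p = 0.0423), and Plcg2, a phospholipase downstream of BLNK, by 0.41 ± 0.11 (adjusted p = 0.0494). Tcf3 measured 124, 101 and 91.2 CPM in WT, 103, 117 and 108 CPM in E2-KO, 71.8, 106 and 57.5 CPM for G12D, and 57.6, 78.5 and 79.6 CPM in G12D/E2-KO, so that 5 of the 6 libraries with NRas G12D were below all 6 without it. Each of the 4 calls was kept only without WT T2, G12D T2 or G12D/E2-KO T3, lost without any of the other 9 libraries (adjusted p = 0.0603 to 0.135), and lost at T1 and T2 alone. None of the end joining or IL-7 and FLT3 genes passed this contrast.

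In the other 6 comparisons over all cells 0 of 52 passed by edgeR. The counts at an unadjusted p under 0.05 and by DESeq2 were 7 and 1 for E2-KO against WT, 4 and 0 for G12D against WT, 17 and 7 for G12D/E2-KO against WT, 13 and 3 for the E2 effect, 3 and 0 for the interaction, and 8 and 0 for T3 against T1; the same shares of all genes are those given above for the members. Within B precursors 3 of 41 tested list genes rose with the E2 effect, where 2.68% of all genes passed:  Bcl11a by 0.75 ± 0.14 (adjusted p = 0.0019), Cish by 1.95 ± 0.47 (adjusted p = 0.0189) and Socs2 by 0.95 ± 0.23 (adjusted p = 0.0238). Cish and Socs2 encode feedback inhibitors induced by STAT5. Bcl11a measured 163 to 238 CPM in WT, 261 to 323 CPM in E2-KO, 166 to 213 CPM in G12D and 262 to 335 CPM in G12D/E2-KO, without overlap between Ezh2-deleted and Ezh2-intact libraries. For Socs2 the ranges overlapped, at 23.6 to 102 CPM in WT and 39.2 to 92.7 CPM in E2-KO. Cish measured 1.63 to 6.78 CPM in WT, 9.68 to 22.1 CPM in E2-KO, 0 to 8.51 CPM in G12D and 14.3 to 23.9 CPM in G12D/E2-KO. With Ezh2 intact these values came from few UMIs, and from none in G12D T3, so the Cish fold change is not a bound. Cish passed the filter on low counts through the Ezh2-deleted libraries, so a rise was the only direction open to it. The Bcl11a call was lost without G12D/E2-KO T2 (adjusted p = 0.0869). Cish was lost without WT T2, G12D T2, G12D/E2-KO T1 or G12D/E2-KO T2 (adjusted p = 0.0542 to 0.0652), and Socs2 without WT T1, WT T2, E2-KO T3, G12D T3 or G12D/E2-KO T1 (0.0681 to 0.104). With the cells as deposited or at T1 and T2 alone neither Cish nor Socs2 passed, and Socs2 did not pass by DESeq2 or without the time point block. Within stem-like cells 1 of 41 rose with the E2 effect, where 1.07% of all genes passed: Myb, a factor of progenitor growth, by 0.50 ± 0.11 (adjusted p = 0.0231). This call was lost without any 1 of 8 libraries (WT T2 or T3, E2-KO T1 or T3, G12D T1, T2 or T3, G12D/E2-KO T2; adjusted p = 0.0517 to 0.115), with the cells as deposited, without the time point block, with either other choice of stem-like cells and at T1 and T2 alone.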

How the data were processed

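Single-cell RNA of c-Kit-enriched bone marrow was measured in 12 libraries. The authors aligned the reads with Cell Ranger to mm10, removed cells with more than 10% mitochondrial UMIs and Scrublet doublets, and deposited the raw UMI counts of each gene and cell; no further cell filter or doublet caller was applied. The 30 members, the lists and the tests were chosen with earlier results of these data known. Ighm and Igkc were not analysed here.

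Cells with a cosine above 0.9 between tables were taken as shared. WT cells were scaled to 10000 UMIs, log-transformed and clustered on 1999 variable genes (50 components, 15 neighbours, Leiden resolution 2; scanpy 1.11.5, leidenalg 0.10.2), and mutant cells took the class of the nearest WT cell. Clusters were named from marker lists. Counts were summed per library and cell set and tested with edgeR 4.0.16 in R 4.3.3 (TMM, filterByExpr, glmQLFit with robust estimation, glmQLFTest), modelling genotype plus time point, with Benjamini-Hochberg adjustment; libraries needed 20 cells. Exact binomial intervals used scipy 1.17.1. The sign-flip test went through all changes of sign, with a share of 0 set to 3 cells. The edgeR test was tested on simulated data, and the sign-flip test on set values with and without a shift. DESeq2 1.42.0 was an alternative, as were other filters, cell definitions, no time point block, cells as deposited, thinning to 2000 UMIs, leaving out each library, and T1 and T2 only.

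The time point is a shared number of the labels. Deviations from the genotype means over 7056 genes correlated at -0.269 to 0.496 between libraries of the same time point (median 0.185, 18 pairs) and at -0.449 to 0.516 between others (median -0.112, 36 pairs). Members were named with per-library values where they passed a test over all cells or in stem-like cells, selected B precursors or reached 20 CPM in a WT library; for members described within a cell set the values of all libraries are given. Precision is set by 12.6 to 23.6 M UMIs per library, and intervals and floors cover counting error only.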

Additional observations from a re-analysis of the deposited data

Results flagged for a closer look

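In stem-like cells, Ly6d on the Ezh2-intact background was higher in G12D than in WT at each of the 3 time points. On the Ezh2-deleted background it was lower in G12D/E2-KO than in E2-KO at each of them. Only WT lacked Mx1-Cre, so the recombinase cannot be told apart from NRas G12D in the first comparison or in the interaction. Ly6d measured 133, 111 and 17.8 CPM in WT at T1, T2 and T3 and 227, 247 and 284 CPM in G12D, a mean difference of 165 CPM. It measured 492, 299 and 201 CPM in E2-KO and 388, 229 and 5.21 CPM in G12D/E2-KO, a mean difference of -123 CPM. The stem-like set also held markers of plasmacytoid dendritic cells, and their part in these Ly6d levels was not tested. The interaction in edgeR was -2.91 ± 1.32 (log2 ± SE, adjusted p = 0.999; unadjusted p = 0.0687), so the difference between the backgrounds did not pass the test with 3 time points. At T1 and T2 alone, an alternative chosen after the data were seen, it was -1.37 ± 0.27 (adjusted p = 0.0139).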

How the results depend on the processing

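The estimates of the members that passed kept their direction under the alternatives run, except Bfsp2 in stem-like cells, whereas few calls were stable. The numbers of members passing are given here for the alternatives that moved them by more than 1.5 times or to or from 0, with the number in the report before the word "to"; the cause of these moves was not tested. DESeq2 moved the members passing over all cells from 0 to 1 for G12D against WT, from 3 to 14 for the G12D effect (all genes from 648 to 1511) and from 0 to 1 for T3 against T1. In stem-like cells it moved them from 3 to 1 for G12D/E2-KO against WT and from 2 to 0 for T3 against T1, and gave Igll1 no adjusted p in either. Without the replicate block on time point, G12D/E2-KO against WT went from 2 to 1 over all cells and from 3 to 0 in stem-like cells, and the G12D effect from 2 to 0 in stem-like cells and from 2 to 0 in B precursors. With no filter on low counts, in stem-like cells, E2-KO against WT, G12D against WT and the E2 effect went from 0 to 1 each, the G12D effect from 2 to 4 and T3 against T1 from 2 to 6, while all genes passing went from 15 to 71, 14 to 54, 91 to 267, 12 to 56 and 19 to 133. With the cells as deposited, G12D/E2-KO against WT over all cells went from 2 to 1, T3 against T1 in stem-like cells from 2 to 1, and the E2 effect in B precursors from 4 to 1. Over cells other than B precursors, G12D/E2-KO against WT went from 2 to 0, the E2 effect from 0 to 1 and the G12D effect from 3 to 0, and Ms4a1 was filtered out there and not tested; for stem-like cells without B precursors, G12D/E2-KO against WT went from 3 to 1, the G12D effect from 2 to 0 and T3 against T1 from 2 to 0. With stem-like cells chosen by 3 or more of 7 genes the last 3 each went to 0, with Bfsp2 at -0.93 (log2), and at Leiden resolution 1 T3 against T1 went to 1. In B precursors a minimum of 2 detected genes moved the E2 effect from 4 to 2, and a minimum of 4 moved the G12D effect from 2 to 0. T1 and T2 only, chosen after the data were seen, gave over all cells 1 for E2-KO against WT and 1 for the E2 effect. In stem-like cells it gave 2 for E2-KO against WT, 2 for G12D against WT, 4 for the E2 effect and 1 for the interaction, and in B precursors 2 (E2 effect) and 1 (G12D effect).

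Leaving out 1 library at a time gave, over all cells, 0 to 1 members for E2-KO against WT, 0 to 3 for G12D/E2-KO against WT, 0 to 1 for the E2 effect, then 0 to 4 for the G12D effect, and 0 in the other comparisons. In stem-like cells it gave 0 to 2 for E2-KO against WT, 0 to 4 for G12D/E2-KO against WT, 0 to 3 for the E2 effect, 1 to 2 for the G12D effect, 0 to 2 for T3 against T1 and 0 in the others, and in B precursors 1 to 5 (E2 effect) and 0 to 3 (G12D effect). The mean log2 ratio of the B precursor share ran from -0.41 to 1.16 for the E2 effect (lowest without WT T3 or E2-KO T3), from -3.02 to -1.45 for the G12D effect and from -4.60 to -0.60 for the interaction. Counts of 1 to 30 UMIs of Fcrla per library, and 22 to 46 B precursors in WT T3, G12D T1 and G12D T3, limit the B precursor values.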
